A study of Mus musculus with 6 samples.

Results

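Cells take up amino acids, sugars and short organic acids through membrane proteins of the solute carrier (SLC) group, which is divided into families by sequence. The amino acid, glucose and monocarboxylate transporters described here are the genes of the Slc1a, Slc2a, Slc3a, Slc5a, Slc6a, Slc7a, Slc16a, Slc36a, Slc38a and Slc43a families, chosen by gene symbol alone. They made up 62 of the 14416 genes of the deposited count table, with 4 in Slc1a, 6 in Slc2a, 2 in Slc3a, 4 in Slc5a, 10 in Slc6a, 11 in Slc7a, 9 in Slc16a, 3 in Slc36a, 11 in Slc38a and 2 in Slc43a. One of the 62, Slc7a6os, matched by its name only: it is the gene on the opposite strand next to Slc7a6 and encodes no transporter. RNA was sequenced from lung innate lymphoid cells (ILCs), lymphocytes that carry no rearranged antigen receptor, which were sorted as Lin-Thy1.2+ cells of C57BL/6J mice. The groups were 3 samples from RBM3KO mice, which lack the cold-inducible RNA-binding protein RBM3, and 3 samples from wild-type (WT) mice. All mice of both genotypes had received 25 µg of the mould Alternaria alternata 3 times over 7 days, so no unchallenged cells were compared. How the knockout was made, the sex and age of the mice, and which sorter handled which sample were not stated in the labels. By the series title, the study asked whether RBM3 restrains ILCs and lung inflammation.

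Transporters are the entry step of nutrient metabolism in lymphocytes. Activated lymphocytes raise glucose uptake through the facilitative carriers of the Slc2a family, take up glutamine through Slc1a5 and Slc38a members, and import leucine and other large neutral amino acids through Slc7a5, which has to pair with the glycoprotein encoded by Slc3a2 (CD98 heavy chain) to reach the cell surface. Lactate made by glycolysis leaves and enters cells with a proton through the monocarboxylate carriers of the Slc16a family. Amino acids that enter this way are sensed by the kinase complex mTORC1 at the lysosome, and their shortage is sensed by the kinase GCN2, which acts through the transcription factor ATF4.

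The total count of a library lay between 7498247 in RBM3KO replicate 3 and 25068137 in WT replicate 3, so values of RBM3KO replicate 3 carry the largest counting error. Rbm3 stood at 26.5, 22.4 and 31.6 CPM (read counts scaled to the size of the library, with edgeR's TMM factors) in the RBM3KO libraries, against 269.7, 313.7 and 292.6 CPM in the WT libraries. Every library therefore matched its label. Sums of markers are given as CPM of the total count, without the TMM factors. The 22 listed ILC markers summed to between 11194 and 11482 CPM in RBM3KO and between 8494 and 9853 CPM in WT. Of 11 listed B and plasma cell markers 8 had a row in the table, and these summed to between 39.5 and 44.2 CPM in RBM3KO and between 63.6 and 89.0 CPM in WT. Of 19 listed markers of macrophages, monocytes and dendritic cells 16 had a row and summed to between 2574 and 3330 CPM in RBM3KO and between 3646 and 4416 CPM in WT. The sums overlapped for markers of T cells (204 to 369 CPM in RBM3KO, 204 to 306 CPM in WT) and of epithelium, stroma and endothelium (92.8 to 430.2 CPM in RBM3KO, 69.3 to 190.6 CPM in WT). In granulocytes and mast cells the sums were 90.8 to 127 CPM in RBM3KO and 83.1 to 112 CPM in WT, and in erythroid cells and platelets 0 to 3.33 CPM in RBM3KO and 0.239 to 1.35 CPM in WT. The part of these differences in the transporter values was not tested, and in bulk libraries fewer cells of a type and less RNA per cell cannot be told apart.

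No transporter passed the test between the genotypes. After the filter on low counts 42 of the 62 genes were tested, and 0 were called higher and 0 lower in RBM3KO (edgeR's quasi-likelihood test, adjusted p under 0.05). Of all 11382 tested genes 1.25% were called, 0.246% higher and 1.00% lower. The smallest adjusted p of a tested member was 0.131 (edgeR). DESeq2, run as an alternative, called 1 member, Slc16a1, lower in RBM3KO, and 4.72% of the 8730 genes to which it gave an adjusted p. At an unadjusted p under 0.05, 1 member was higher (Slc43a2) and 3 were lower (Slc16a1, Slc7a5 and Slc6a6), which is 9.52% of the tested members against 12.3% of all tested genes (5.46% higher and 6.87% lower). The RBM3KO and WT libraries did not overlap for 8 members, 5 of them above and 3 below WT, which is 19.0% of the tested members against 18.9% of all tested genes (8.43% above and 10.5% below). These shares are near the background. The median log2 fold change (RBM3KO minus WT) was 0.05 over the tested members and 0.01 over all tested genes, with 26 members above 0 and 16 below, where 50.9% of all tested genes lay above 0.

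The intervals show how large a difference the data leave room for. For 21 of the 42 tested members the 95% interval of the fold change lay within a 2-fold difference in either direction, and for 10 within a 1.5-fold difference. The intervals were narrowest for the most abundant carriers and exceeded 4-fold in at least one direction for several members counted at a few reads, among them Slc16a9, Slc5a3, Slc5a11 and Slc7a7. The filter passes a gene that is high in either genotype, so the tested members are not a sample of all 62.

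**Figure D1:**
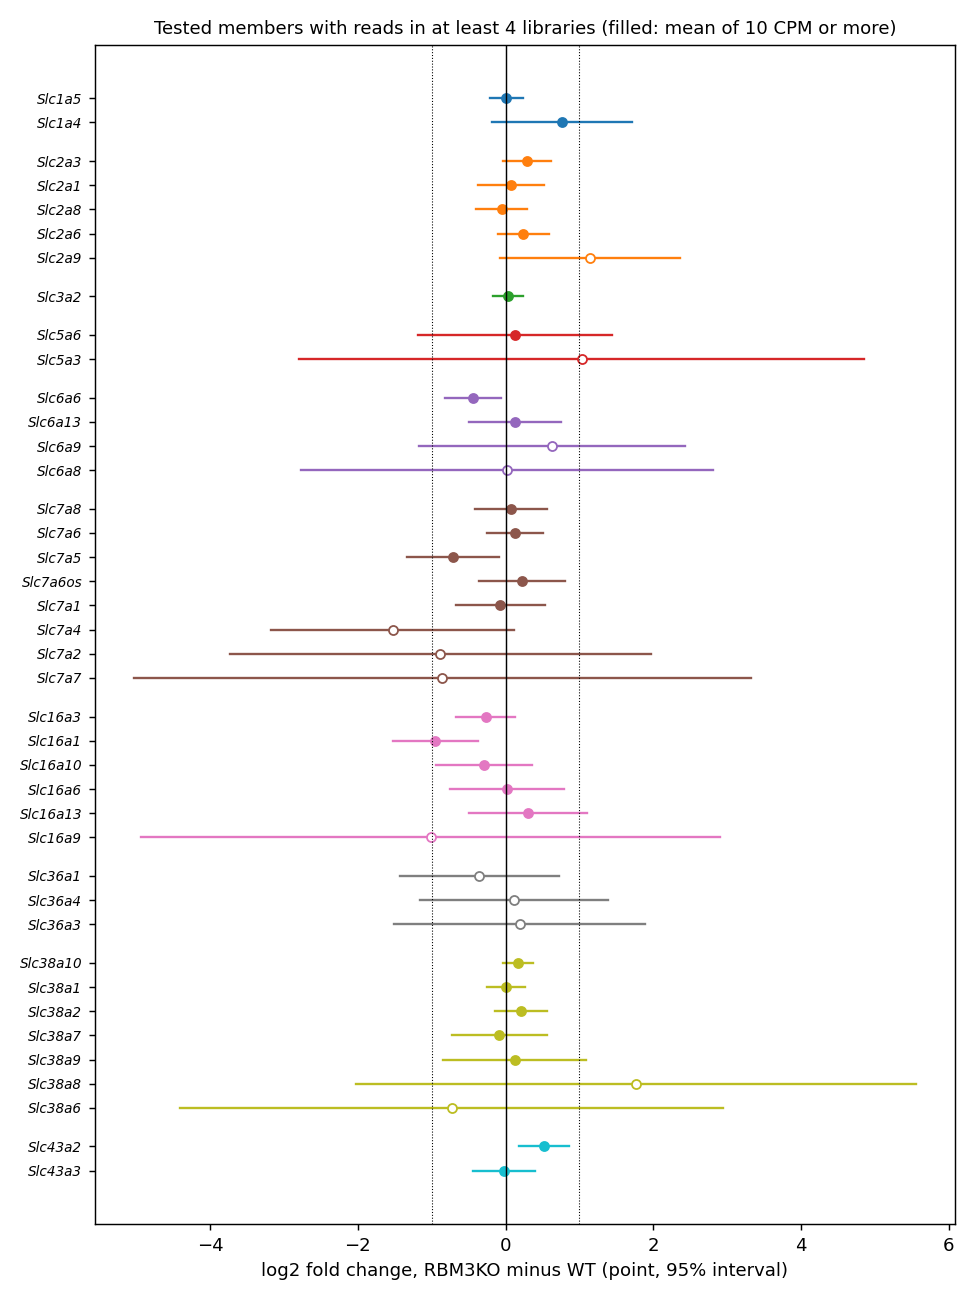
Log2 fold change (x axis, RBM3KO minus WT) of the 40 tested members with reads in at least 4 libraries, grouped and coloured by family, with lines for the 95% interval of the edgeR fit and dotted lines at a 2-fold difference. Filled points are members with a mean of 10 CPM or more; most lie close to 0 with short intervals, while open points of low members have intervals several log2 units wide.

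Set side by side per kilobase of transcript, the carriers with the most RNA were Slc3a2 and Slc1a5. Slc3a2 stood at 160.1 ± 7.57 CPM per kilobase in RBM3KO and 156.1 ± 10.1 in WT (SD, n = 3 each). Slc1a5, the glutamine and neutral amino acid exchanger ASCT2, stood at 151 ± 8.79 CPM per kilobase in RBM3KO and 149.6 ± 15.3 in WT (SD, n = 3 each). The ranges of these 2 genes overlapped in each genotype, although Slc3a2 was the higher in every library except RBM3KO replicate 1. Together they held 32.5% of all reads counted for the 62 genes. Next came Slc38a10, a poorly characterised member of the glutamine carrier family, at 69.9 ± 3.09 CPM per kilobase in RBM3KO and 62.1 ± 2.02 in WT. It was followed by Slc2a3, the glucose carrier GLUT3, at 45.6 ± 8.39 CPM per kilobase in RBM3KO and 37.3 ± 3.40 in WT. Below these, Slc2a8, Slc2a6, Slc43a3, Slc7a8, Slc7a6, Slc7a5, Slc2a1, Slc38a1 and Slc38a2 had means between 17.6 and 33.4 CPM per kilobase in RBM3KO and between 18.6 and 33.0 in WT, and each pair of neighbours in that order overlapped over the 6 libraries. Of the 62 genes 27 had a mean of 10 CPM or more over the 6 libraries.

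**Figure D2:**
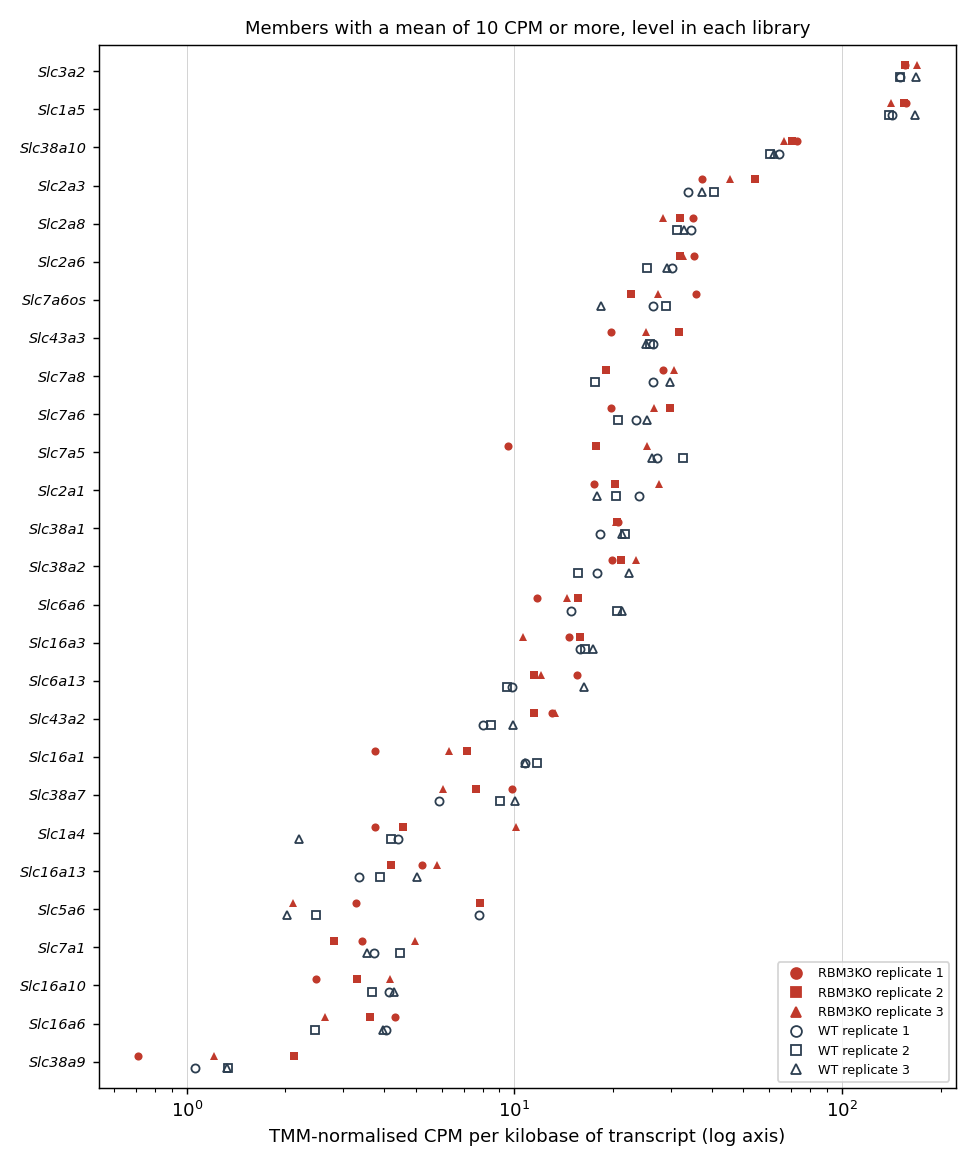
Level of the 27 members with a mean of 10 CPM or more, as TMM-normalised CPM per kilobase of transcript (x axis, log scale), with one symbol per library, RBM3KO filled and WT open. Slc3a2 and Slc1a5 stand above all others in every library, and the genotypes stand apart for few rows, among them Slc16a1 and Slc43a2.

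The glycoprotein partner gene Slc3a2 (mm10 chromosome 19, 8706882 to 8723369) had nearly the same level in both genotypes. It stood at 437, 439 and 475 CPM in the RBM3KO libraries, against 424, 422 and 472 CPM in the WT libraries, and the groups overlapped. The log2 fold change was 0.04 (95% interval -0.17 to 0.24, edgeR adjusted p = 0.940).

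Slc7a5 (chromosome 8, 121881150 to 121907694), the leucine and large neutral amino acid exchanger LAT1, was lower on average in RBM3KO without passing the test. It stood at 33.7, 62.3 and 89.4 CPM in the RBM3KO libraries, against 95.5, 115 and 92.7 CPM in the WT libraries. All 3 RBM3KO values lay below all WT values, but RBM3KO replicate 3 came within a few CPM of the lowest WT library and RBM3KO replicate 1 was far below the rest. The log2 fold change was -0.71 (95% interval -1.34 to -0.09, edgeR adjusted p = 0.329). It was -0.42 without RBM3KO replicate 1 and -1.07 without RBM3KO replicate 3.

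Of the other light chains that pair with the Slc3a2 product, Slc7a6 and Slc7a8 had estimates near 0. Slc7a6, which exchanges cationic for neutral amino acids, stood at 74.0, 112 and 100.1 CPM in the RBM3KO libraries, against 88.4, 77.8 and 95.2 CPM in the WT libraries (log2 fold change 0.13, 95% interval -0.25 to 0.51). Slc7a8, the neutral amino acid exchanger LAT2, stood at 116, 77.9 and 126 CPM in the RBM3KO libraries, against 108, 71.9 and 122 CPM in the WT libraries (0.08, 95% interval -0.41 to 0.57). In both genes the groups overlapped over most of their range. Slc7a7 and the cystine carrier gene Slc7a11 were near the counting floor, with 0, 26 and 9 reads in RBM3KO and 4, 0 and 119 in WT for Slc7a7, and 3, 2 and 2 reads in RBM3KO and 1, 37 and 6 in WT for Slc7a11. In both the mean was lower in RBM3KO, and in each case 1 WT library held most of the WT reads. Part of the exons of Slc7a7 overlap those of Oxa1l on the other strand, and these libraries do not keep strand.

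Ratios of reads within a library do not depend on scaling between libraries. In all, 6 such ratios were computed, all chosen after the values had been seen. Slc7a5 had 7.72, 14.2 and 18.8 reads per 100 reads of Slc3a2 in the RBM3KO libraries, against 22.5, 27.2 and 19.6 in the WT libraries. The groups did not overlap, although RBM3KO replicate 3 lay just under WT replicate 3 (exact permutation p = 0.1, two-sided, the smallest that 3 against 3 can give, and 0.2 after Benjamini-Hochberg adjustment over the 6 ratios). For Slc7a6 the ratio was 21.2 ± 4.32 in RBM3KO and 19.8 ± 1.25 in WT, and for Slc7a8 23.6 ± 5.05 in RBM3KO and 22.8 ± 5.02 in WT (SD, n = 3 each), with overlap in both. Slc7a5 averaged 13.6 ± 5.58 in RBM3KO and 23.1 ± 3.80 in WT, so in WT the 3 light chains had similar ratios.

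**Figure D3:**
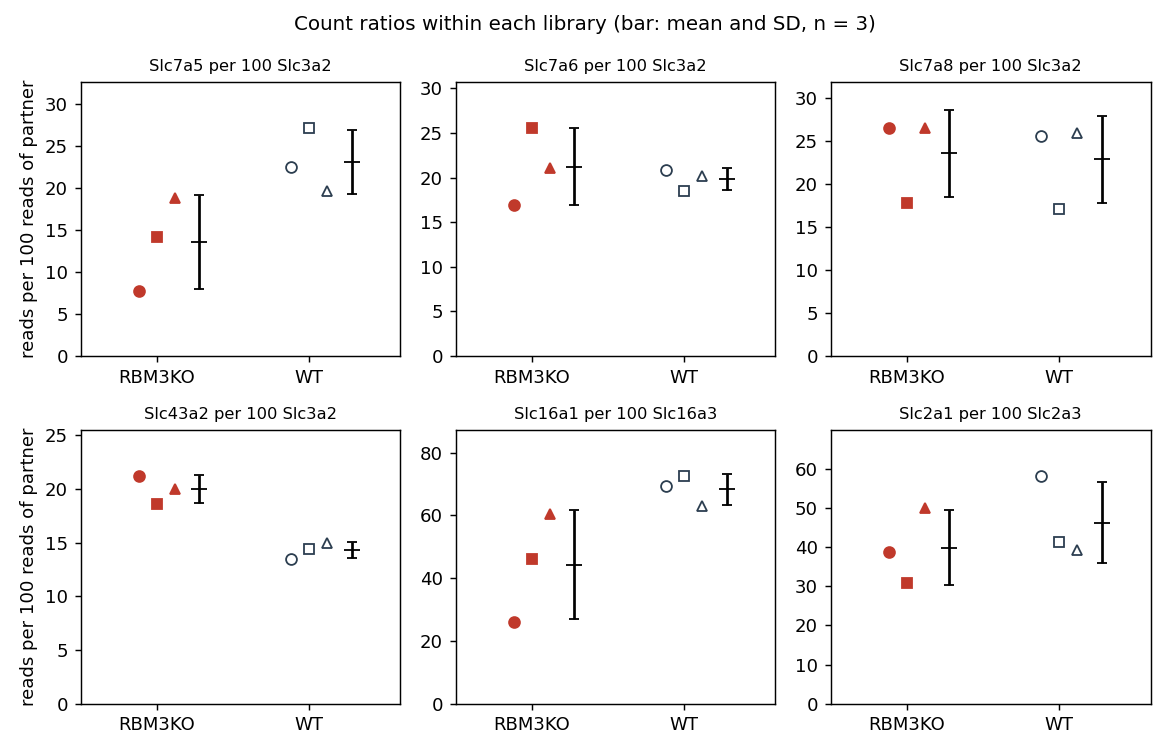
Reads of one carrier per 100 reads of another in the same library (y axis), RBM3KO filled and WT open, with the mean and SD of 3 libraries beside the points. The genotypes do not overlap for Slc7a5 to Slc3a2, Slc43a2 to Slc3a2 and Slc16a1 to Slc16a3, and overlap for the other panels.

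Slc43a2 (chromosome 11, 75531694 to 75577575) encodes LAT4, which carries leucine and other large neutral amino acids without the Slc3a2 partner. It stood at 92.9, 81.9 and 95.2 CPM in the RBM3KO libraries, against 57.2, 60.7 and 70.7 CPM in the WT libraries. Every RBM3KO library was above every WT library. Of its 7194 exon bases 548 overlap Gm45606 on the other strand, which has no row of its own, and these libraries do not keep strand. The log2 fold change was 0.52 (SE 0.15, 95% interval 0.18 to 0.85), which did not pass over all genes (edgeR adjusted p = 0.171). It lay between 0.45 and 0.61 when each library was left out in turn. Per 100 reads of Slc3a2 it had 21.3, 18.7 and 20.0 reads in RBM3KO, against 13.5, 14.4 and 15.0 in WT (exact permutation p = 0.1, adjusted p = 0.2). The related Slc43a3, which carries purine nucleobases, stood at 66.0 ± 15.7 CPM in RBM3KO and 66.9 ± 1.56 CPM in WT (SD, n = 3 each; log2 fold change -0.02).

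The glutamine carriers were abundant and close between the genotypes. Slc1a5 stood at 433, 427 and 389 CPM in the RBM3KO libraries, against 393, 386 and 462 CPM in the WT libraries, with a log2 fold change of 0.01 (95% interval -0.21 to 0.23). Slc38a1, the sodium-coupled carrier SNAT1, stood at 150.1, 149.2 and 148.2 CPM in RBM3KO, against 133, 157.6 and 155 CPM in WT (0.01, 95% interval -0.24 to 0.26). Slc38a2, or SNAT2, which cells raise when amino acids are short, stood at 92.2, 98.5 and 109 CPM in RBM3KO, against 83.0, 72.7 and 104 CPM in WT (0.21, 95% interval -0.15 to 0.56). In these 3 genes the groups overlapped. Slc38a10 stood at 333, 321 and 305 CPM in RBM3KO, against 294, 275 and 284 CPM in WT, and the groups did not overlap (0.17, 95% interval -0.03 to 0.37, edgeR adjusted p = 0.502). Part of its exons (367 of 5423 bases) overlap Gm11769 on the other strand.

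The lysosomal members of the same family were lower in level. Slc38a7, a lysosomal glutamine exporter, averaged 26.1 ± 6.34 CPM in RBM3KO and 27.7 ± 7.19 CPM in WT (SD, n = 3 each). Slc38a9, the lysosomal arginine sensor of mTORC1, stood at 6.33, 19.0 and 10.8 CPM in RBM3KO, against 9.46, 11.9 and 11.9 CPM in WT. Slc1a4, the alanine, serine and cysteine exchanger ASCT1, had 39.7 CPM in RBM3KO replicate 3 against 14.7 and 17.9 CPM in the other 2 RBM3KO libraries and 17.4, 16.5 and 8.65 CPM in the WT libraries. Its log2 fold change of 0.76 was 0.21 without RBM3KO replicate 3, the shallowest library. Of the 11 Slc38a rows 7 were tested (median log2 fold change 0.12, but 0.0086 without RBM3KO replicate 2 and 0.021 without WT replicate 1), and both tested Slc1a members lay above 0.

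The cationic amino acid carriers, which bring in arginine and lysine, gave mixed values at low levels. Slc7a1, the broadly expressed arginine carrier CAT1, averaged 26.8 ± 7.95 CPM in RBM3KO and 28.1 ± 3.57 CPM in WT (SD, n = 3 each), with a log2 fold change of -0.07. Slc7a4, related to the cationic carriers by sequence, stood at 2.22, 0.896 and 6.33 CPM in RBM3KO, against 11.3, 4.58 and 10.8 CPM in WT, with overlap through RBM3KO replicate 3 (-1.53, 95% interval -3.18 to 0.12). Slc7a3, which encodes CAT3, had 0 reads in each RBM3KO library, against 76, 8 and 91 reads in the WT libraries. Over the group this is at least 41.1-fold lower in RBM3KO, taking 3 counts over the 3 RBM3KO libraries as the floor, which covers counting error only. The filter left Slc7a3 untested, and without the filter its edgeR adjusted p was 0.0903.

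Slc6a19, a neutral amino acid carrier best known from kidney and intestine, showed the same pattern of reads. It had 0 reads in each RBM3KO library, against 8, 15 and 72 in the WT libraries, at least 22.3-fold lower over the group by the same floor (edgeR adjusted p = 0.298 without the filter). These were the 2 members with no read in any RBM3KO library and reads in all WT libraries. Of all genes with a row, 68 (0.472%) had that pattern and 12 (0.0832%) had the opposite one, which no member showed.

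For the Slc7a family as a whole the median was -0.39 on the log2 scale, from 8 tested rows with Slc7a6os among them. That median rests on rows of few reads: over the 5 rows with at least 10 CPM in 3 libraries it was 0.08. Slc7a6os itself averaged 35.7 ± 8.20 CPM in RBM3KO and 30.7 ± 6.94 CPM in WT (SD, n = 3 each).

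Among the Slc6a carriers, which move amino acids and their derivatives with sodium and chloride, the taurine carrier Slc6a6 (chromosome 6, 91684053 to 91759066) was the most abundant. It stood at 72.7, 97.0 and 89.4 CPM in the RBM3KO libraries, against 92.2, 127 and 132 CPM in the WT libraries. The groups overlapped through WT replicate 1. The log2 fold change was -0.44 (95% interval -0.82 to -0.06, edgeR adjusted p = 0.317). Slc6a13, which carries GABA and taurine, averaged 29.1 ± 4.82 CPM in RBM3KO and 26.5 ± 8.55 CPM in WT (SD, n = 3 each). The remaining rows of the family had fewer than 10 CPM, and 6 of the 10 were not tested.

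No tested member of the glucose carrier family Slc2a passed edgeR's test between the genotypes. Slc2a3, which encodes the high-affinity carrier GLUT3, stood at 148, 214 and 180.2 CPM in the RBM3KO libraries, against 134, 161 and 148 CPM in the WT libraries. RBM3KO replicate 1 lay within the WT range and the other 2 above it (log2 fold change 0.29, 95% interval -0.03 to 0.61, edgeR adjusted p = 0.459). Slc2a1, which encodes the general carrier GLUT1, stood at 57.2, 66.0 and 90.2 CPM in RBM3KO, against 78.1, 66.6 and 58.1 CPM in WT (0.07, 95% interval -0.37 to 0.52). Reads of Slc2a1 per 100 reads of Slc2a3 were 39.9 ± 9.64 in RBM3KO and 46.3 ± 10.4 in WT (SD, n = 3 each), with overlap.

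Of the carriers inside the cell, Slc2a6, the lysosomal GLUT6, stood at 75.7, 68.6 and 70.0 CPM in RBM3KO, against 64.5, 54.3 and 62.5 CPM in WT. Its groups did not overlap, with a log2 fold change of 0.24 (95% interval -0.10 to 0.59). Slc2a8, or GLUT8, averaged 67.0 ± 7.14 CPM in RBM3KO and 69.6 ± 3.54 CPM in WT (SD, n = 3 each). Slc2a9, a urate carrier by function, stood at 7.44, 7.58 and 13.9 CPM in RBM3KO, against 2.59, 3.59 and 6.81 CPM in WT, without overlap (1.14, 95% interval -0.07 to 2.35, edgeR adjusted p = 0.436). Of 5 tested Slc2a members 4 had an estimate above 0, with a median of 0.24 (0.15 without RBM3KO replicate 2).

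Slc16a1 (chromosome 3, 104638668 to 104658462), which encodes the lactate and pyruvate carrier MCT1, had the smallest adjusted p of the 42 tested members. It stood at 16.6, 31.7 and 27.9 CPM in the RBM3KO libraries, against 47.7, 51.7 and 47.6 CPM in the WT libraries. All RBM3KO values lay well below the narrow WT range, and RBM3KO replicate 1 was the lowest. The log2 fold change was -0.95 (SE 0.26, 95% interval -1.52 to -0.38, edgeR adjusted p = 0.131), and DESeq2 gave an adjusted p of 0.0282 at a log2 fold change of -0.94. The estimate lay between -1.15 and -0.72 when each library was left out in turn.

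Slc16a3, which encodes MCT4, the carrier that exports lactate from strongly glycolytic cells, stood at 63.7, 68.6 and 46.0 CPM in the RBM3KO libraries, against 68.9, 71.2 and 75.5 CPM in the WT libraries. The groups did not overlap, by a margin of less than 1 CPM (log2 fold change -0.27, 95% interval -0.67 to 0.13, edgeR adjusted p = 0.632). Without RBM3KO replicate 3 the log2 fold change was -0.12. Slc16a1 had 26.1, 46.2 and 60.5 reads per 100 reads of Slc16a3 in RBM3KO, against 69.3, 72.7 and 63.0 in WT (exact permutation p = 0.1, adjusted p = 0.2). RBM3KO replicate 3, which had the lowest Slc16a3 value, came close to WT in this ratio.

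The promoters of these 2 lactate carriers, and that of Slc43a2, are shown because they belong to the members with the clearest separation between the genotypes and to the partner that Slc16a1 was set against. They come from RefSeq on GRCm38.p6, run from 250 bases before to 50 bases after an annotated transcript start, and are written 5′ to 3′ on the gene's own strand, which is the plus strand for all. Capitals mark matches, on either strand, to CACGTG, the E-box that MYC and USF proteins can bind, or to ACGTG, the core of the hypoxia response element, which lies within every CACGTG.
Slc16a1, chr3:104638414-104638713: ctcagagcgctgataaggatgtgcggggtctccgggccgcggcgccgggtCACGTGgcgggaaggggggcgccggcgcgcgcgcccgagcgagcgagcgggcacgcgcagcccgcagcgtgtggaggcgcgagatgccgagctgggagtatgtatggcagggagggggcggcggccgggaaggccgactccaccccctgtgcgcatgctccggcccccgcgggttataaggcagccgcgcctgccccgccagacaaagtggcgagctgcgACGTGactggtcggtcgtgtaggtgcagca
Slc16a3, chr11:120948817-120949116: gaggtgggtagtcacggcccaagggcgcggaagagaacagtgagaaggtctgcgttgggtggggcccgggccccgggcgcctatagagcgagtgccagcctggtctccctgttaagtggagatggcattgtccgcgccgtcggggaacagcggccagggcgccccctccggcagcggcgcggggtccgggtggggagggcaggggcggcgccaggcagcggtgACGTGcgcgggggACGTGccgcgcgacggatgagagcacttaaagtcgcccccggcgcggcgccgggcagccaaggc
Slc43a2, chr11:75531444-75531743: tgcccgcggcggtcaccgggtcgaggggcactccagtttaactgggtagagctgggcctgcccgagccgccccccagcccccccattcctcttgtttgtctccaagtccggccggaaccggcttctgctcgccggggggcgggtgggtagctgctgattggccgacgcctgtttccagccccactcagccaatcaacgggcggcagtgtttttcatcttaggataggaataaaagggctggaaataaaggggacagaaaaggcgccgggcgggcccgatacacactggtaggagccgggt

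In the Slc16a1 window the E-box began 200 bases before the transcript start and a further ACGTG lay after the start, while the Slc16a3 window held ACGTG beginning 27 and 14 bases before the start. The Slc43a2 window held neither set of letters. Only the first listed window of each gene was taken, and a gene can have others. The Slc16a3 window lies inside the annotated gene, which begins at 120948480. Of all 32851 promoters of that length 7.15% held CACGTG and 19.6% held ACGTG. The 45 members found there had 65 promoters, of which 6 (9.23%) held CACGTG and 15 (23.1%) held ACGTG. These matches describe letters in a window and not binding.

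The other monocarboxylate rows included carriers of other cargo. Slc16a10, an aromatic amino acid carrier, averaged 17.9 ± 4.55 CPM in RBM3KO and 21.8 ± 1.77 CPM in WT, and Slc16a13 averaged 12.8 ± 2.04 CPM in RBM3KO and 10.3 ± 2.16 CPM in WT (SD, n = 3 each). Slc16a6 averaged 14.9 ± 3.53 CPM in RBM3KO and 14.7 ± 3.75 CPM in WT, and its exons overlap those of Amz2 on the other strand. Of 7 tested Slc16a rows 3 had an estimate above 0 and 4 below, with a median of -0.27 (-0.12 without RBM3KO replicate 3). The summed level of the family was 125, 146 and 123 CPM of the total count in RBM3KO, against 170.4, 166 and 182 CPM in WT, without overlap, and Slc16a1 and Slc16a3 made up most of that sum. The Slc43a sums did not overlap either, at 139.0, 162 and 159 CPM in RBM3KO, against 127, 130 and 138.4 CPM in WT. This family has 2 genes, Slc43a2 (log2 fold change 0.52) and Slc43a3 (-0.02). The sums of the other 8 families overlapped as CPM of the total count. Unlike the values of single genes, these sums carry no TMM factors. Those factors lay between 0.968 and 0.992 in RBM3KO and between 1.015 and 1.020 in WT. After such scaling the Slc2a and Slc38a sums are higher in every RBM3KO library than in any WT library. Among single genes 18.9% of all tested genes did not overlap, so such separation is common in these data.

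**Figure D4:**
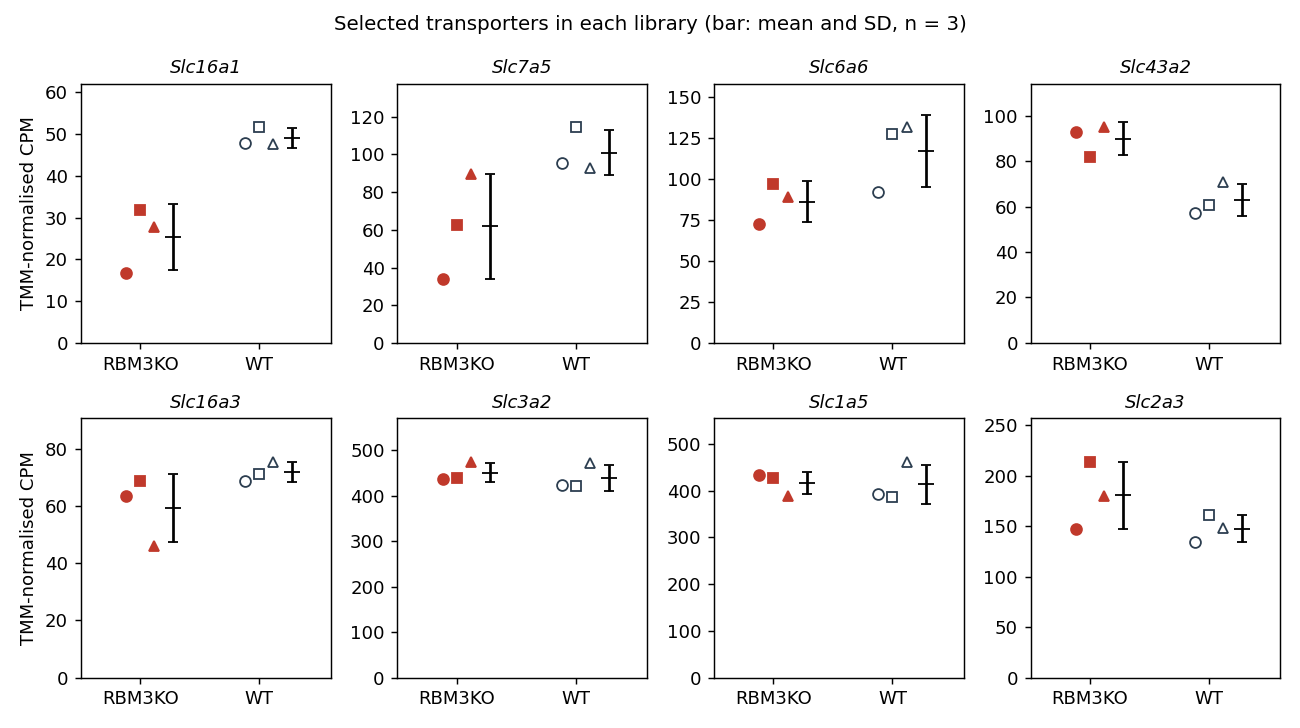
TMM-normalised CPM (y axis) of 8 carriers in each library, RBM3KO filled and WT open, with the mean and SD of 3 libraries beside the points. Slc16a1 and Slc7a5 lie lower and Slc43a2 higher in all RBM3KO libraries, while Slc3a2, Slc1a5 and Slc2a3 overlap between the genotypes.

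The Slc5a and Slc36a families were little represented. Slc5a6, the sodium-coupled carrier of biotin and pantothenate, stood at 11.3, 27.0 and 7.27 CPM in RBM3KO, against 26.8, 8.52 and 6.93 CPM in WT, with one high library in each genotype. Slc36a1, the lysosomal proton-coupled amino acid carrier PAT1, stood at 13.2, 5.73 and 4.71 CPM in RBM3KO, against 8.50, 9.46 and 12.4 CPM in WT. Slc36a4 averaged 6.18 ± 2.57 CPM in RBM3KO and 5.70 ± 2.41 CPM in WT (SD, n = 3 each). Slc5a3, the inositol carrier, shares exon sequence with Mrps6 on the same strand, so its few reads are uncertain.

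The 20 members that were not tested held between 1 and 175 reads in all 6 libraries together, and 11 of them had reads in 1 library only. They were Slc1a1, Slc1a6, Slc2a5, Slc3a1, Slc5a10, Slc6a2, Slc6a4, Slc6a12, Slc6a17, Slc6a19, Slc6a20b, Slc7a3, Slc7a11, Slc7a14, Slc16a5, Slc16a7, Slc38a3, Slc38a4, Slc38a5 and Slc38a11. A library with no read allows up to between 0.117 and 0.404 CPM, by a floor of 3 counts. The tested members had longer transcripts (median 3716 bases) than all tested genes (median 2842 bases, known for 99.1% of them), and their median GC content was 52.8% against 50.6%.

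Genes around the transporters were followed in 4 lists. Of 29 tested genes of mTORC1 and amino acid sensing 0 passed edgeR's test, with a median log2 fold change of 0.07, and 2 were higher and 1 lower at an unadjusted p under 0.05, or 10.3% against 12.3% of all tested genes. The 1 lower gene was Rragc (log2 fold change -0.94, edgeR adjusted p = 0.126), and the 2 higher were Deptor (1.90) and Sesn1 (0.69). DESeq2 called 1 gene of this list, with a background of 4.72%. Gatsl3 averaged 221 ± 23.4 CPM in RBM3KO and 190.1 ± 26.9 CPM in WT, and Lamtor2, a subunit of the scaffold that holds mTORC1 at the lysosome, 165 ± 15.2 CPM in RBM3KO and 158 ± 4.11 CPM in WT (SD, n = 3 each). Of 25 tested partners and trafficking regulators 0 passed edgeR's test, with a median of 0.13, and 4 were higher and 1 lower at an unadjusted p under 0.05, or 20% against 12.3% of all tested genes. The 4 higher were Hif1a (log2 fold change 0.51, edgeR adjusted p = 0.0730), Rab4a (0.51), Myc (0.36) and Emb, and the 1 lower was Akt1 (-0.55). DESeq2 called 1 of the 25, where it called 4.72% of all genes. Bsg, the glycoprotein basigin that brings MCT1 and MCT4 to the cell surface, stood at 609, 569 and 541 CPM in RBM3KO, against 563, 567 and 545 CPM in WT (log2 fold change 0.04, 95% interval -0.15 to 0.23). Emb, or embigin, another partner of monocarboxylate carriers, stood at 714, 556 and 716 CPM in RBM3KO, against 534, 457 and 562 CPM in WT (0.36, edgeR adjusted p = 0.232). RBM3KO replicate 2 overlapped WT for Emb, and the groups overlapped for Bsg.

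Of 42 tested enzymes that use glucose, lactate or amino acids 0 passed edgeR's test, with a median of 0.005, and 4 were higher and 4 lower at an unadjusted p under 0.05, or 19.0% against 12.3% of all tested genes. DESeq2 called 3, against 4.72% of all genes. Ldha, the lactate dehydrogenase subunit that makes the lactate carried by MCT4, averaged 3841 ± 359 CPM in RBM3KO and 4266 ± 88.5 CPM in WT, and Arg1, which splits arginine, 2922 ± 412 CPM in RBM3KO and 2197 ± 117 CPM in WT (SD, n = 3 each; edgeR adjusted p = 0.497 for Ldha and 0.105 for Arg1). Arg1 passed with DESeq2 (adjusted p = 0.0031), without the filter on low counts (edgeR adjusted p = 0.0473) and without RBM3KO replicate 1 (edgeR adjusted p = 0.0284). It is also one of the 22 listed ILC markers, whose sum was higher in every RBM3KO library than in any WT library. Within that list 18 estimates lay above 0 and 4 below. The 4 were Thy1, the sorting marker (log2 fold change -0.02), Tbx21 (-0.67), Eomes (-0.68) and Klrb1c (-1.06).

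Of 22 tested genes of the amino acid response 2 were called lower in RBM3KO and 0 higher, against 1.00% and 0.246% of all tested genes. At an unadjusted p under 0.05, 6 were lower (27.3%) and 0 higher. Of all tested genes 6.87% were lower and 5.46% higher at that threshold, together 12.3%. The median was -0.15, with 15 estimates below 0 and 7 above. Among the 7 were Atf4 itself (log2 fold change 0.12), Asns (0.11), Ddit4 (0.25) and Sesn2 (0.49). Besides Phgdh and Cebpb, which were called, the genes lower at an unadjusted p under 0.05 were Psat1 (-0.37), Shmt2 (-0.36), Mars (-0.38) and Cebpg (-0.77). The list thus held estimates in both directions, with more of them below 0. The summed markers of macrophages, monocytes and dendritic cells were lower in every RBM3KO library (2574 to 3330 CPM in RBM3KO, 3646 to 4416 CPM in WT). Those of B and plasma cells were lower as well (39.5 to 44.2 CPM in RBM3KO, 63.6 to 89.0 CPM in WT). Most of the first difference lay in the MHC class II genes, with Cd74 at 1487 ± 170.3 CPM in RBM3KO and 1837 ± 418 CPM in WT, H2-Ab1 at 641 ± 73.1 CPM in RBM3KO and 904 ± 211 CPM in WT, and H2-Aa at 367 ± 35.4 CPM in RBM3KO and 545 ± 95.6 CPM in WT (SD, n = 3 each). These values of single genes carry the TMM factors, which the sums do not. Among the same markers the means of Ccr2, Xcr1, Emr1 and Marco were higher in RBM3KO. The part of either marker list in these 2 calls was not tested. Phgdh, the first enzyme of serine synthesis, stood at 234, 213 and 207 CPM in the RBM3KO libraries, against 409.7, 360 and 357 CPM in the WT libraries, without overlap (log2 fold change -0.78, SE 0.10, edgeR adjusted p = 0.00786). Its call ended without WT replicate 1 (edgeR adjusted p = 0.0627). Cebpb, a transcription factor that dimerises with ATF4, stood at 0.718, 1.43 and 9.02 CPM in RBM3KO, against 40.4, 42.3 and 118 CPM in WT (-4.33, SE 0.84, edgeR adjusted p = 0.0441). The Cebpb call held when RBM3KO replicate 3 was left out and ended when any other single library was, with edgeR adjusted p between 0.0674 and 0.137.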

How the data were processed

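The deposited table holds whole-number read counts, unnormalised, for each gene in each of the 6 samples. Tools listed in the submitters' processing notes, without role or order, are STAR 2.6.1c, featureCounts 1.6.5 and Bowtie 1.0.0, and the build is mm10. The gene annotation, strand setting and read filters were not stated there. By the labels' protocols, polyA RNA was amplified by Smart-seq2 and made into Nextera XT libraries, which keep no strand and no molecular identifiers, so PCR copies are counted. The labels do not say that replicates came from separate mice, so p-values cover only the variation among these libraries, part or all of which can be technical.

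All 14416 genes entered 1 fit: filterByExpr, TMM, edgeR's robust quasi-likelihood test (edgeR 4.0.16, R 4.3.3), two-sided, with Benjamini-Hochberg adjustment over 11382 tested genes. Members, lists and named genes were chosen with earlier results of these data known. Named members are those past the test, those at an unadjusted p under 0.05, the 10 of highest mean and the highest of each family; others were named after their values were seen, and 1 member is not reported here by name. Intervals use the fit's moderated degrees of freedom. Lengths, GC content and coordinates came from GENCODE M21 (GRCm38, the assembly of mm10), where all 62 members matched, using the transcript with the longest coding sequence. The fit was checked on simulated counts. No 2 libraries agreed within counting noise (lowest chi-square per degree of freedom 21.5). Of the alternatives, DESeq2 1.42.0 and limma-voom 3.58.1 replaced the test. Others changed scaling, filter, depth, GC offsets, the replicate block and the libraries used.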

Additional observations from a re-analysis of the deposited data

How the results depend on the processing

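Of 17 alternatives, 16 called 0 transporter genes, and DESeq2 called 1 lower (Slc16a1). Over all genes 142 were called, 412 with DESeq2 and between 12 and 99 when each library was left out in turn, which also leaves the test fewer samples. With the replicate block 149 were called and 0 members. Same-numbered libraries correlated in their deviations from the group mean at 0.0555, 0.0574 and 0.00531, so the numbers were not taken to pair them, and RBM3KO replicate 3 correlated best with WT replicate 2. The median over members stayed between 2.2e-05 and 0.094 without each library in turn. DESeq2 called 1 gene each of the sensing and partner lists and 3 of the enzymes, and at 10 CPM in 3 libraries 1 partner was called. Arg1, an enzyme, was also called with no filter and without RBM3KO replicate 1. The Slc38a median was 0.012 with the replicate block. The amino acid response list kept 1 call with no filter, at 10 CPM in 3 libraries, with limma-voom and after GC offsets, where the Cebpb call ended. Of 30 member fold changes followed, 14 changed sign under at least 1 alternative, and all 14 were at most 0.13 in size in the analysis as reported. Equal depth gave -0.0142 for Slc16a6 and -0.0131 for Slc38a1. GC offsets gave -0.00401 for Slc38a1 and 0.0572 for Slc2a8 (0.0515 with the replicate block). Slc38a9 had -0.0102 with limma-voom, -0.00992 with the replicate block and -0.0435 with the block and GC offsets, and Slc43a3 0.00376 with upper-quartile scaling. The cause was not tested. Leaving out each library in turn gave ranges across 0 of -0.18 to 0.19 for Slc16a6, -0.0387 to 0.0965 for Slc1a5, -0.13 to 0.21 for Slc2a1, -0.129 to 0.0232 for Slc2a8, -0.0674 to 0.0519 for Slc38a1, -0.28 to 0.0721 for Slc38a7 and -0.38 to 0.43 for Slc38a9. They were -0.0035 to 0.0894 for Slc3a2, -0.21 to 0.14 for Slc43a3, -0.59 to 0.98 for Slc5a6, -0.0159 to 0.43 for Slc6a13, -0.33 to 0.10 for Slc7a1, -0.00234 to 0.28 for Slc7a6, -0.12 to 0.26 for Slc7a8 and -0.00900 to 0.0765 for Bsg. The depth of RBM3KO replicate 3 puts its floor of 3 counts at 0.404 CPM.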
